A study of Mus musculus with 2 samples.

Results

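The small leucine-rich proteoglycans were followed in mouse embryonic fibroblasts (MEFs, cultures of connective tissue cells that are made directly from embryos) with and without the Hippo pathway kinase gene Lats2. The members were the 10 genes Dcn, Bgn, Aspn, Fmod, Lum, Prelp, Kera, Omd, Ogn and Chad, taken as every non-control probe that carried one of these names in the array files. All 10 were on the array, with 13 probes, among 27745 gene names and 41174 probes. The groups were untreated C57BL/6J MEFs of genotype LATS2-/- (KO) and LATS2+/+ (WT), which the genotype field of the labels spells LAT2. The mutant MEFs come from an earlier study of the same group. The supplement speaks of WT littermates as controls and of several independent cell lines in an analysis of Lats2 KO MEFs, but the sources used here do not tie these arrays to a number of lines or embryos. Total RNA of each genotype was labelled with the dyes Cy5 (red) and Cy3 (green), and both were hybridised together on 2 Agilent whole mouse genome arrays. KO RNA carried Cy5 on the first array and Cy3 on the second, and the second array's ratios were inverted so that every ratio is KO over WT. The labels name no separate replicates, so the arrays count as 1 replicate of each genotype. No test between genotypes was possible, and each error below is the spread between the 2 arrays, which measures hybridisation and dye error.

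Both arrays lay on 1 slide and were read in 1 scan, and no spot was saturated. The ratios of the 2 arrays had a Pearson correlation of 0.90 across 40875 probes, which do not count as replicates. That value depends on the dye correction: it was 0.67 with the ratios of the scanner software and -0.18 with 1 median per array in place of an intensity-dependent curve. On the log2 scale a single probe varied between them with a pooled SD of 0.13. The targeted gene went against its label. On the brightest of 4 Lats2 probes the ratio was 0.52 and 0.60 on the 2 arrays, higher in the KO RNA, and only the probe at chr14:56676512-56676571 was lower, at -0.18 and -0.51. Which part of Lats2 the mutation removes is not given in the sources used here, and a probe outside that part checks nothing. Each sample is for this reason named by its label, as RNA labelled KO or RNA labelled WT, and every direction rests on those labels. The study also examined Lats2 protein in KO MEFs by western blotting, which was not analysed here. All 8 measured fibroblast markers (Col1a1, Col1a2, Col3a1, Pdgfra, Pdgfrb, Thy1, Vim and Fn1) were well above background on both arrays in at least 1 RNA, whereas no endothelial, epithelial, muscle or osteoblast marker on the lists was. Of 4 macrophage and 4 neural markers 2 each were, and none of these was called.

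Small leucine-rich proteoglycans are secreted proteins of the extracellular matrix whose core is built of leucine-rich repeats. Many carry chondroitin, dermatan or keratan sulfate chains, and several bind collagen fibrils and set their diameter and spacing, or hold growth factors of the TGF-β family in the matrix. The genes fall into classes by sequence, with Dcn, Bgn and Aspn in class I, Fmod, Lum, Prelp, Kera and Omd in class II, Ogn in class III and Chad in class IV. In mouse most of them lie in short gene clusters: Aspn, Omd and Ogn are neighbours on chromosome 13, Dcn, Lum and Kera on chromosome 10, and Prelp and Fmod on chromosome 1.

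The 250 bases before the annotated start of 4 members are shown, because the chromosome 13 neighbours Aspn and Omd were both called lower, Ogn beside them was not called, and Prelp was called higher. They are RefSeq sequences on GRCm38.p6, read 5′ to 3′ on the strand of the gene, at chr13:49544193-49544442 (Aspn, plus strand), chr13:49582212-49582461 (Omd, plus), chr13:49607765-49608014 (Ogn, plus) and chr1:133921402-133921651 (Prelp, minus). Capitals mark every match, on either strand, to the TATA box letters TATAAA, to CATTCC, the core letters bound by TEAD factors (the DNA-binding partners of the Hippo effector YAP), or to the E-box CANNTG.
Aspn: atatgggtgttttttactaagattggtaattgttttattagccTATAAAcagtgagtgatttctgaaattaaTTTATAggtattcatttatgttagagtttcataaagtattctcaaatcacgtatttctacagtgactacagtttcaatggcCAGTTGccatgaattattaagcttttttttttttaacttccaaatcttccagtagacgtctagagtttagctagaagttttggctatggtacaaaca
Omd: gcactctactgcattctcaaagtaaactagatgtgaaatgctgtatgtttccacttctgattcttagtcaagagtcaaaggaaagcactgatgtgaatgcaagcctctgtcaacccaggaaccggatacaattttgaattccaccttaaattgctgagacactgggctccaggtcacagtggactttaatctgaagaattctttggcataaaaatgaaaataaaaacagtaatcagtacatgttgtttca
Ogn: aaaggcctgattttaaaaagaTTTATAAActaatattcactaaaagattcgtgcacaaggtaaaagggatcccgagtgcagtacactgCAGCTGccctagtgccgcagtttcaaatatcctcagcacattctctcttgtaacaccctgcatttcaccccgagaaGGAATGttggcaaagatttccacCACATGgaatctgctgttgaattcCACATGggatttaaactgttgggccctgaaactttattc
Prelp: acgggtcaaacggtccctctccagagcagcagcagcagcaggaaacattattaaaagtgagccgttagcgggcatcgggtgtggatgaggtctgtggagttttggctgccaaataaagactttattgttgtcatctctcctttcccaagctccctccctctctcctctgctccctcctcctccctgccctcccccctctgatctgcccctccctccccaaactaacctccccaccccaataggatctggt

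The windows of Aspn and Omd were rich in A and T, with a GC content of 30.0% and 38.4%, and that of Ogn held 42.0%, against 53.2% over the 32851 promoter windows of this length. The Prelp window held 55.6%. Ogn held the only CATTCC match of the 4, 86 to 81 bases before its start, and 12.6% of all windows hold one. It also held 3 E-boxes, and Aspn held 1, where 66.2% of all windows hold at least 1. Aspn and Ogn each held 2 TATAAA matches, those of Ogn overlapping each other, and all lay 173 or more bases before the start. A TATAAA match was found in 12.4% of all windows. Omd and Prelp held none of the 3 motifs. A match is a run of letters only.

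A gene was called when the probe with its highest mean intensity showed a 2-fold or larger difference (a log2 ratio of 1 or more, or of -1 or less) on the first and again on the second array, and the brighter RNA was well above background on both. Of the 10 members 2 were called lower, Aspn and Omd, and 1 was called higher, Prelp. Among all 15877 genes well above background on both arrays in at least 1 RNA, 2.61% were called lower and 2.95% higher. Of the members, 9 met that condition and Kera did not. The median log2 ratio of the 10 members was -0.10, beside -0.00033 over all 27579 genes measured. That of the 9 was -0.18, which is the mean ratio of Bgn, beside -0.0037 over the 15877 genes. The members ran from -1.96 for Aspn to 1.23 for Prelp, with 7 mean ratios below 0 and 3 above. Among the 7, Bgn, Kera and Chad had ratios of opposite sign on the first and second array, so the count shows no lean of the family.

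**Figure D1:**
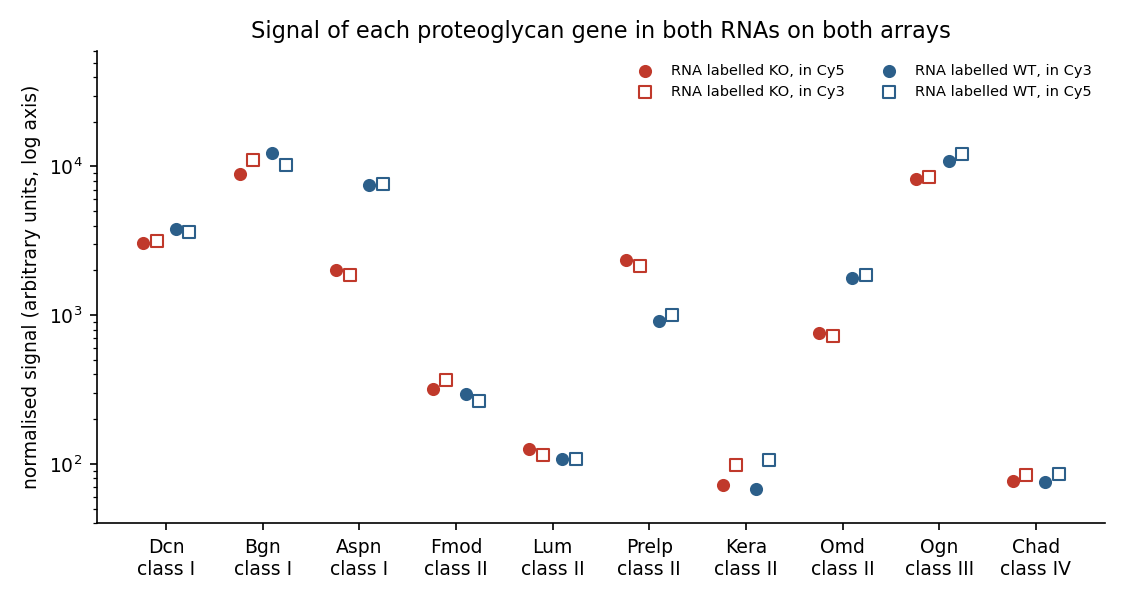
Normalised signal (arbitrary units, log axis) of the brightest probe of each of the 10 genes, red for RNA labelled KO, blue for RNA labelled WT; circles are the first array and squares the second. For Aspn and Omd both blue points lie above both red ones, for Prelp both red points lie above both blue ones, and Kera and Chad lie near the lower end on both arrays. Heights of different genes cannot be compared, since each probe binds with its own strength.

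In class I, asporin (Aspn), which binds collagen and TGF-β and is abundant in tendon and periodontal ligament, had the lowest ratio of the family. Its normalised signal was 2002 and 1878 in the RNA labelled KO, in Cy5 and Cy3, and 7513 and 7592 in the RNA labelled WT. The 2 RNAs did not overlap, and the arrays lay close together. With 2 values against 2, and without the share of all genes that do not overlap, this says little by itself, here and for the members below. The log2 ratio was -1.91 on the first array and -2.02 on the second, a mean of -1.96 ± 0.076 (SD, n = 2 arrays), so that the RNA labelled WT gave 3.89-fold more signal. Of the 15877 genes, 73 (0.460%) were as low or lower. The Aspn probe lies at chr13:49579047-49579106 on NCBI36 (mm8), the build of all probe positions here.

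Decorin (Dcn), the proteoglycan that coats collagen fibrils in skin and tendon, gave 3081 and 3151 units in the RNA labelled KO and 3783 and 3640 in the RNA labelled WT. The RNAs did not overlap, but the log2 ratio was small, -0.30 and -0.21 on the 2 arrays, and 3805 of the 15877 genes were as low or lower. A second probe named Dcn, made for a cDNA at chr10:96910401-96910460, was not well above background in either RNA. Biglycan (Bgn), decorin's closest relative and a ligand of Toll-like receptors, was the member on which the arrays differed most. Its brighter probe gave 8884 and 11075 units in the RNA labelled KO and 12363 and 10275 in the RNA labelled WT, so the RNAs overlapped. The log2 ratio was -0.48 on the first array and 0.11 on the second, and only 0.613% of the 22357 probes well above background in both RNAs differed by as much. The dimmer Bgn probe gave 0.15 and 0.08. No direction was shown for Bgn.

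In class II, osteomodulin (Omd), a keratan sulfate proteoglycan first known from bone, was the other member called lower. It gave 755 and 723 units in the RNA labelled KO and 1784 and 1876 in the RNA labelled WT. The RNAs did not overlap. The log2 ratio was -1.24 and -1.38, a mean of -1.31 ± 0.096 (SD, n = 2 arrays), or 2.48-fold more signal in the RNA labelled WT, and 1.56% of genes were as low or lower.

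Prelp, which binds collagen through its leucine-rich repeats and heparan sulfate through its basic N-terminal end and thereby links basement membranes to the connective tissue, ran the other way. Its brighter probe, at chr1:135726768-135726827, gave 2347 and 2155 units in the RNA labelled KO and 913 and 1000 in the RNA labelled WT. The log2 ratio was 1.36 and 1.11, a mean of 1.23 ± 0.18 (SD, n = 2 arrays), or 2.35-fold higher in the RNA labelled KO. Of all genes, 2.32% were as high or higher. The Prelp call rested on this probe alone. The other Prelp probe, 4.69 kb away on the same transcript record, was not well above background in either RNA on either array.

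Fibromodulin (Fmod) and lumican (Lum), which compete for sites on collagen I fibrils, were not called. Fmod gave 320 and 367 units in the RNA labelled KO and 294 and 266 in the RNA labelled WT, with log2 ratios of 0.12 and 0.47. The 2 arrays differed by 0.34 for Fmod, and 7.54% of probes differed by as much. Lum gave 126 and 115 units in the RNA labelled KO and 108 in the RNA labelled WT on both arrays, with log2 ratios of 0.22 and 0.10. With the ratios of the scanner software the mean of Lum was 0.35 in place of 0.16, at 0.49 and 0.21 on the 2 arrays, still not called. Neither gene's RNAs overlapped, but the smaller of each pair of ratios was within the pooled SD of a probe. Keratocan (Kera), a proteoglycan of the cornea, was well above background in both RNAs on the second array only, with 72.8 and 98.4 units in the RNA labelled KO and 68.4 and 106 in the RNA labelled WT. Its 2 ratios had opposite signs, 0.09 and -0.10.

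**Figure D2:**
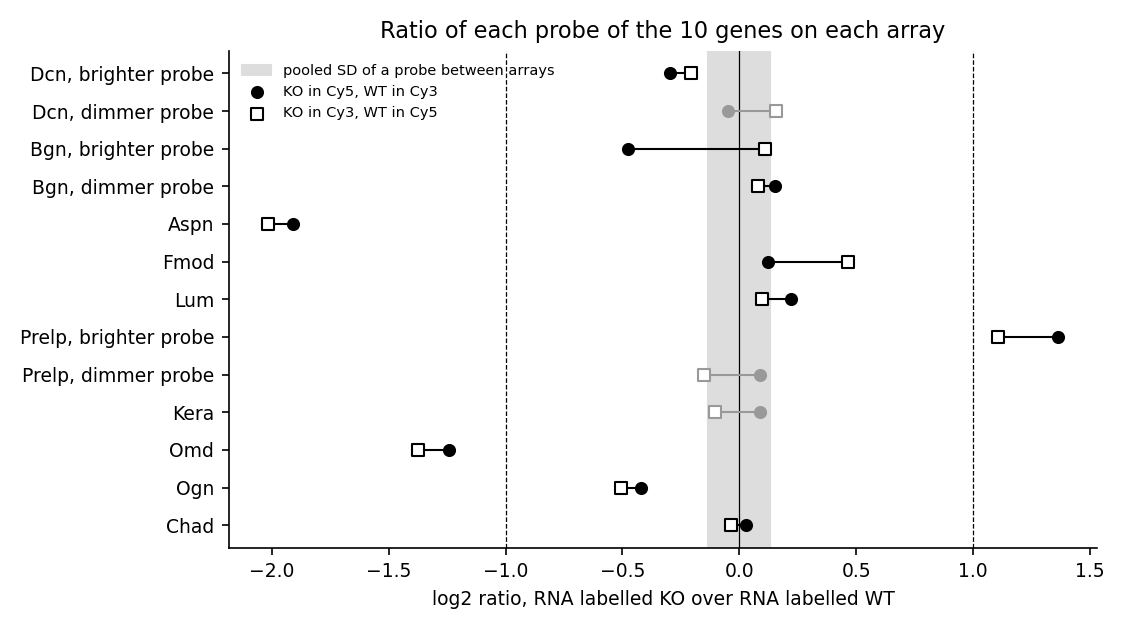
Log2 ratio of the RNA labelled KO over the RNA labelled WT for all 13 probes of the 10 genes; circles are the first array (KO in Cy5), open squares the second (KO in Cy3), dashed lines a 2-fold ratio, and the grey band the pooled SD of 1 probe between arrays (0.13). Probes drawn in grey were in neither RNA well above background on both arrays. Aspn and Omd lie left of the lower dashed line and the brighter Prelp probe right of the upper one on both arrays, and the brighter Bgn probe spans 0.

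In class III, osteoglycin (Ogn, also called mimecan), a short family member of bone, cornea and vessel wall, had a ratio below 0 on both arrays without reaching the 2-fold threshold. It gave 8181 and 8552 units in the RNA labelled KO and 10959 and 12133 in the RNA labelled WT. The RNAs did not overlap, and the log2 ratio was -0.42 and -0.50, a mean of -0.46 ± 0.058 (SD, n = 2 arrays). That is 72.5% of the signal of the RNA labelled WT, and 12.8% of genes were as low or lower. In class IV, chondroadherin (Chad), a cartilage protein that binds integrins and collagen and carries no long sugar chain, stayed near background. It gave 77.0 and 83.7 units in the RNA labelled KO and 75.4 and 85.8 in the RNA labelled WT, where it was well above background on 1 array only. A difference in Chad or Kera was not detectable at this signal.

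The calls of Aspn, Omd and Prelp rested on the correction of dye bias. In the scanner's raw mean signals Omd read 1152 units in the RNA labelled KO against 1119 in the RNA labelled WT on the first array, and 440 against 2906 on the second, the Cy5 label being the brighter one each time. With 1 median per array in place of the intensity-dependent loess curve, Aspn was at -0.98 and -2.84, Omd at -0.45 and -2.14 and Prelp at 2.18 and 0.33 on the 2 arrays, and none of the 3 was called. Their means over both dye orders were -1.91, -1.29 and 1.25, all close to those above.

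The 3 gene clusters were then read along the chromosome, with every probe within 250 kb of the members, a window chosen after the members' values were seen. On chromosome 13 the ratio went from -1.96 for Aspn through -1.31 for Omd, 25.4 kb on, to -0.46 for Ogn, 57.1 kb from Aspn. Their neighbour Ecm2, which encodes a matrix protein with leucine-rich repeats, was not well above background in either RNA. Of 14 other probes there that were, 1 was called lower and none higher. That was a probe of Cenpp, which encodes a centromere protein and is read from the other strand, at -1.26 and -1.11, and in the RefSeq annotation the span of Cenpp takes in Ecm2, Aspn, Omd and Ogn. Median centring gave this probe -0.44 and -1.89, so that it was not called. A Cenpp probe on the far side of Ogn gave -0.96 and -0.78, and the third Cenpp probe was near background, at -0.15 and -0.04. Bicd2, Ippk, Nol8 and Iars, which flank the cluster, lay between -0.43 and 0.42 on all their probes well above background.

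On chromosome 10 the members spread over 133 kb, none was called, and no other probe in the window, those of the cornea and cartilage gene Epyc included, was well above background. On chromosome 1 Prelp at 1.23 and Fmod at 0.29 lay 137 kb apart. Optc, the gene of the eye protein opticin and 8.35 kb from the Prelp probe, was not well above background. The 6 other probes there that were, among them 3 of Btg2, ranged from -0.25 to 0.49.

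**Figure D3:**
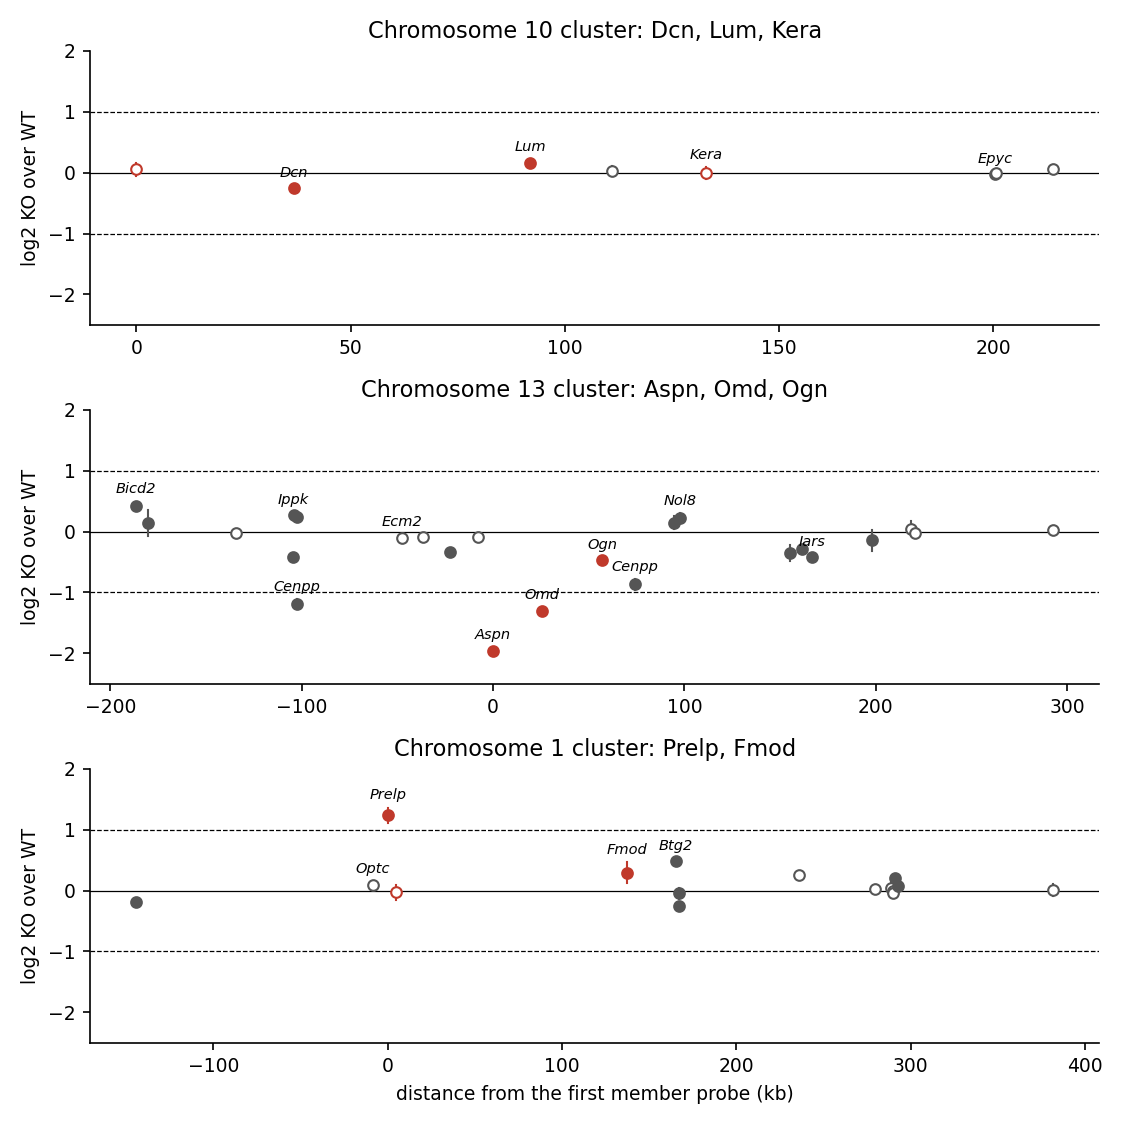
Mean log2 ratio of KO over WT against distance in kb from the first member probe, for every probe near the 3 gene clusters; red marks members and grey other genes, the vertical line joins the 2 arrays, open points were in neither RNA well above background on both arrays, and dashed lines are a 2-fold ratio. Aspn, Omd and Ogn lie at -1.96, -1.31 and -0.46 among neighbours between -1.18 and 0.42, and Prelp at 1.23 stands above the other probes near it.

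Of the 9 other family genes on the list, 8 were measured, and 4 of them passed the background condition. Podnl1, the gene of podocan-like 1 in class V, was called higher at a mean of 1.55 ± 0.075 (SD, n = 2 arrays), which is 2.93-fold, a call lost with median centring. Its class V relative Podn was at 0.07 and 0.19. Tsku, the gene of the secreted BMP and Wnt modulator tsukushi, was at 0.44 and 0.43 on its brighter probe. Nepn, nephrocan, stood well above background only in RNA labelled KO and was at least 1.15-fold higher there. Neither array had Epyc, Optc or Ecm2 well above background, 1 array had Nyx, and no usable probe was named for Chadl.

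The collagens that these proteoglycans bind had a median log2 ratio of -0.53 over the 12 measured, beside -0.00033 over all genes, with 4 called lower and none called higher. Of the 12, 11 met the background condition. Among all genes that met it, 2.61% were called lower and 2.95% higher, the shares to set beside the counts of every list. With median centring in place of loess 1 was called, Col11a1, and the calls of Col6a1, Col6a2 and Col12a1 were lost. Col11a1, a minor chain of fibrils, was at -2.15 and -2.41 on its brightest probe. Col12a1, a fibril-associated collagen, was at -1.91 and -1.80 on its brighter probe. The dimmer Col12a1 probe, also well above background in both RNAs, was at -1.10 and -0.93 and missed the threshold on the second array. Col6a1 and Col6a2, chains of the microfibrillar collagen VI that decorin and biglycan bind, were at -1.31 and -1.24 in the mean, and the third chain Col6a3 at -0.86 was not called. Among the major fibril chains Col1a1 was at -0.56, Col3a1 at -0.49, and Col1a2 at 0.04 and -0.04 on the 2 arrays, none of them called. The only Col1a2 probe was made for a cDNA.

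Of the growth factors and receptors that the family binds, 2 of 16 were called higher and 1 lower, and 13 of the 16 met the background condition. Bmp4, a ligand that biglycan can bind, was at 2.36 and Tgfb2, a ligand of the decorin-bound TGF-β family, at 1.24. Tlr2, a receptor of biglycan and decorin, was at -1.27. Of these 3 the calls of Tgfb2 and Tlr2 were lost with median centring. The other receptor of biglycan, Tlr4, was at -0.62, and the means of the decorin receptors Egfr, Met and Igf1r lay between 0.01 and 0.48. On the 2 arrays Egfr was at 0.43 and -0.06 and Igf1r at -0.006 and 0.027, so no direction was shown for either.

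Of 12 measured proteases that cleave the family, 4 were called higher and 1 lower, and 9 of the 12 met the background condition. Adamts1 and Adamts5, which cut large and small proteoglycans, were 5.81-fold and 5.49-fold higher in the RNA labelled KO. Mmp2 was 3.46-fold higher there, and Tll1, a member of the procollagen C-proteinase family, was 2.46-fold higher. Mmp3, stromelysin, was at -2.51. With median centring the call of Tll1 was lost and the other 4 held. Adamts4 at -0.91 and -1.15 missed the threshold on the first array, and Bmp1, which trims the propeptide of biglycan, was at 0.33.

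Among 21 measured genes for the synthesis of chondroitin and dermatan sulfate, the chains of decorin and biglycan, 2 were called lower. Of the 21, 20 met the background condition. Csgalnact1, which adds the first galactosamine of a chondroitin chain, was at -1.57, and Chst3, a chondroitin 6-sulfotransferase, at -1.09 on its brighter probe, while in neither RNA was the other Chst3 probe well above background. Both calls were lost with median centring. The list's median was -0.02. None of 8 genes for keratan sulfate, the chain of Fmod, Lum, Kera and Omd, was called, and B3gnt2 at -0.81 and -1.09 was the lowest. None of 11 other secreted proteoglycans was called either, and the largest ratio in size among the 3 well above background was that of Vcan, versican, at -0.59.

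**Figure D4:**
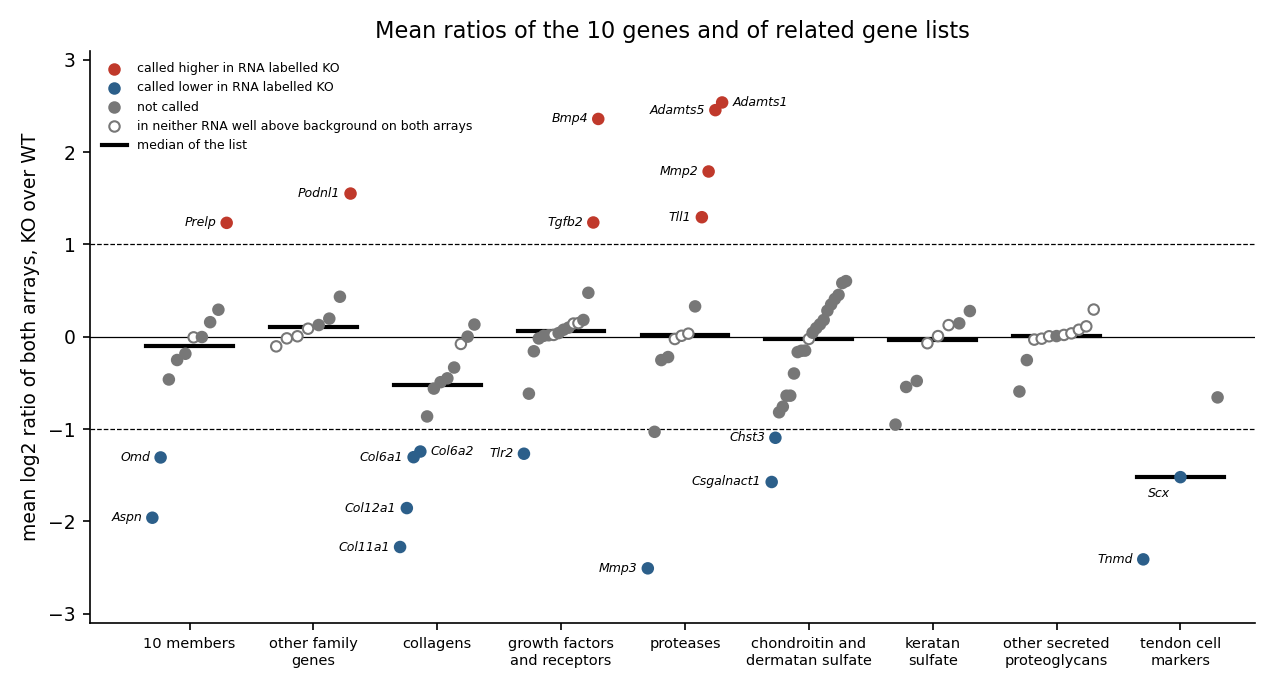
Mean log2 ratio over both arrays of each of the 10 genes and of the genes on 8 related lists, 1 point per gene (its brightest probe), with list medians as black bars and dashed lines at a 2-fold ratio; open points were in neither RNA well above background on both arrays. The collagens are the list of proteoglycan partners with the lowest median, -0.53, and the proteases hold both the highest and the lowest point of the partner lists, 2.54 for Adamts1 and -2.51 for Mmp3.

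Several of these proteoglycans are abundant in tendon, and 2 of the 3 markers of tendon cells on the list were called in the direction of Aspn and Omd. The other members did not share that call. Prelp was called higher at 1.23, and 7 were not called, among them Ogn at -0.46, Dcn at -0.25, Lum at 0.16 and Fmod at 0.29. Tnmd, tenomodulin, was at -2.59 and -2.24, Scx, the tendon transcription factor scleraxis, at -1.54 and -1.51, and Mkx at -0.43 and -0.88. Each of the 3 was well above background in both RNAs. With median centring Scx was at -0.89 and -2.17 and not called, and Tnmd was still called. The summed signal of the 3 was 1149 and 1095 in the RNA labelled KO and 2321 and 2593 in the RNA labelled WT. Among 4 adipocyte markers Pparg was called higher at 2.83, and Fabp4 was at least 1.95-fold higher, while Adipoq and Plin1 were not well above background; the 4 summed to 2713 and 2472 against 543 and 524. No chondrocyte marker was called, and Col9a1 and Matn1 were not well above background. The mean ratios of the 6, on their brightest probes, ran from -0.33 for Col2a1 to 0.62. Their near-equal sums of 2247 and 2295 against 2300 and 2246 therefore do not show that each gene stayed level. A dimmer Col2a1 probe, well above background in both RNAs, gave 0.27, so no direction was shown for Col2a1. Of the 8 fibroblast markers none was called. Their median was -0.43, with 6 mean ratios below 0 and 2 above. Col1a1, Col1a2 and Col3a1 are on this list and on that of the collagens, so the medians of these lists are not separate observations. The part of cell makeup in the ratios of Aspn, Omd and Prelp was not tested. In RNA of a whole culture, fewer cells of a type and less RNA per cell cannot be told apart.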

How the data were processed

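Total RNA of Lats2 KO and WT MEFs was compared on 2 two-colour Agilent arrays with exchanged dyes. Per the labels, RNA was amplified from its poly(A) end and labelled as antisense cRNA. The submitters' processing notes name Agilent Feature Extraction 10.5.1.1. The authors deposited mean signals and median local backgrounds of each spot as intensity in arbitrary units. Per the file headers, the same tables hold a log10 ratio of Cy5 over Cy3 after the software's background and dye correction. A deposited table of the series holds log2 ratios per probe, which matched log2 of KO over WT from the processed signals on both arrays, with column medians of -0.018 and 0.037. It is not centred, and the second array is already turned.

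Background correction by normexp (offset 50) and loess normalisation within each array were run in limma 3.58.1 under R 4.3.3, with control spots at weight 0. The offset pulls ratios of dim probes towards 0. Signals of each RNA are channel values after quantile normalisation of mean intensities (Aquantile). Of 43379 non-control spots per array, 390 and 378 carried an outlier flag and were left out. Spots of a probe were averaged. Median signals were 96.8 and 98.5 in Cy5 and 60.1 and 58.2 in Cy3. With 1 replicate of each genotype, the number of arrays limits the precision.

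The flag "well above background" is that of Feature Extraction and had to be set in a share of at least 0.5 of a probe's spots. A probe without it in 1 RNA on both arrays has a bound only, taken against the higher of its own signal and the lowest signal well above background. The call at 2-fold takes the threshold of the study's methods. The methods' t-test and limma's test on the 2 arrays compare the hybridised RNAs, not the genotypes, and were alternatives only. Named were all members with every probe, the other family genes, and from each further list the called genes and up to 3 with the largest ratios, plus Lats2; genes named beyond these were picked after their values were seen. The members and lists were chosen with earlier results of these data known. List names were matched by symbol, older symbol or accession, and 144 of 150 entries had a usable probe. Promoter windows came from a RefSeq table on GRCm38.p6, without conversion to the build of the probes. The calling step alone was tested on simulated ratios with planted changes and random noise. These held no dye bias, so the dye correction was not tested. Alternatives were the background step, the normalisation, the deposited ratios, flagged spots, other probes, other call rules and each array alone.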

Additional observations from a re-analysis of the deposited data

How the results depend on the processing

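No paired analysis was possible because the labels give 1 replicate per genotype. The calls of Aspn and Omd held in 13 of 15 alternatives each and that of Prelp in 11. Some alternatives could not lose a call: a mean of at least 2-fold, the 1.5-fold threshold, no background condition and each array alone. The deposited ratios of the members were also almost the same as those of Feature Extraction. The counts therefore overstate how many separate checks each call passed. Aspn ran from -2.02 to -1.91, Omd from -1.40 to -1.24 and Prelp from 0.60 to 1.36 over 9 ways of computing the ratio, and no called member changed sign. With median centring in place of loess 0 members were called higher and 0 lower, 321 and 169 of all probes were called higher and lower (65.5% higher, beside 54.4% of the 599 and 503 with loess), 0 other family genes, 0 chondroitin and dermatan sulfate genes, 1 collagen, 1 growth factor or receptor and 4 of the 5 proteases were called, and the correlation between the arrays turned to -0.18. When all probes of a gene were averaged, Lats2 was at 0.35, 0 members were called higher and 1 chondroitin and dermatan sulfate gene was called. Feature Extraction's log ratio called 1280 probes higher and 1220 lower, the deposited log2 ratios 1284 and 1224, and a 1.5-fold threshold 1480 and 1515; the first 2 called 2 other family genes each, and their correlations between arrays were both 0.67, against 0.76 with an offset of 10. The methods' t-test at its threshold, run on the 2 arrays, called 0 members higher and 2 lower, and 524 and 443 of all probes. After Benjamini-Hochberg adjustment it called 0 members higher, 0 members lower and 0 probes higher and 0 lower, where limma called 662 and 598. With each array alone the keratan sulfate genes called ranged from 0 to 1, and the members called stayed at 1 higher and 2 lower. A single array could only add calls to these members and could not lose one, because the main rule already needs the threshold on each array. The cause of these differences was not tested. Dim signal limits Kera and Chad, and 1 replicate of each genotype limits every value.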
